A study of Homo sapiens with 24 samples.

Results

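Protocadherins are cell-surface adhesion proteins of the cadherin superfamily. The genes described here are 65 of the 57167 distinct gene symbols in each library's count table, taken by symbol as every PCDH gene whose name follows the pattern of the alpha, beta and gamma clusters or of a numbered solitary gene and that occurs once. They comprise 16 alpha, 16 beta and 22 gamma genes and 11 solitary genes. Another 12 PCDH symbols, among them PCDH11X, PCDH11Y, pseudogenes and antisense transcripts, fall outside that pattern and were not described. Polyadenylated RNA was sequenced from 3 human triple-negative breast cancer cell lines, HCC1395, HCC38 and HCC1937, in 8 groups of 3 libraries (A, B and C), 24 in all. HCC1395 had a group with the solvent DMSO alone, one with the EZH2 inhibitor tazemetostat at 5 uM (EZH2i), one with the AKT inhibitor ipatasertib at 5 uM (AKTi) and one with both (EZH2i+AKTi). HCC38 and HCC1937 had DMSO and EZH2i+AKTi groups. EZH2 is the enzyme of the PRC2 complex that methylates lysine 27 of histone H3, a mark of silenced genes, and AKT is a kinase of the PI3K growth-signalling pathway. Each cell line stems from a single tumour and was grown in culture, the treatment time of these libraries was not stated in the labels, and no label ties libraries A, B and C to separate cultures. A p-value here therefore reflects the variation among these particular libraries, which could be technical.

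The alpha, beta and gamma genes lie side by side on chromosome 5q31. Each alpha and gamma gene is a large first exon with its own promoter, spliced to a few constant exons shared by its cluster, whereas each beta gene is a single exon of its own. Neurons express small, varying sets of these genes, and the proteins bind like to like, which gives each cell a surface identity. Most of the promoters carry a short conserved element with the core CGCT, are bound by CTCF, and are switched on by looping to distant enhancers or kept silent by DNA methylation. Solitary protocadherins lie outside the clusters, PCDH1 and PCDH12 farther along chromosome 5 and the rest on other chromosomes, and are grouped as delta1 (PCDH1, PCDH7, PCDH9), delta2 (PCDH8, PCDH10, PCDH17, PCDH18, PCDH19) and others (PCDH12, PCDH15, PCDH20). They act in cell adhesion, sorting and migration, and several are known to be silenced in tumours. On hg38 with GENCODE v29 gene models, the 3 clusters span chr5:140786136-141512981 on the plus strand.

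Between 33469927 and 51815656 reads were counted to genes per library. Values are CPM, the read count scaled to library size, after TMM scaling over all 24 libraries, while fold changes come from edgeR fits of each line by itself. The 2 kinds of value can therefore differ slightly. Of 8 breast epithelial markers, EPCAM, CDH1, KRT19 and KRT17 stood at 1.76, 0.347, 0.875 and 0.884 CPM in HCC1395 DMSO. There KRT14, KRT8, KRT18 and KRT5 stood at 431, 32.5, 29.1 and 6.36 CPM. EPCAM and CDH1 were at 508 and 241 CPM in HCC38 DMSO and 336 and 694 CPM in HCC1937 DMSO. In HCC38 DMSO, KRT8, KRT18 and KRT19 were at 987.5, 549.9 and 1153 CPM, and KRT5, KRT14 and KRT17 at 4.49, 0.223 and 0.914 CPM. In HCC1937 DMSO these 6 keratins, in the same order, were at 3471, 1681, 52.6, 6.41, 10.3 and 104.5 CPM. Of 5 fibroblast markers in HCC1395 DMSO, COL1A2 and COL1A1 were at 733 and 60.6 CPM, and DCN, LUM and PDGFRB were at 0.192, 0.00897 and 0.344 CPM. The share of counts from mitochondrial genes averaged 3.85% in HCC1395 DMSO and 4.74%, 5.55% and 6.20% under EZH2i, AKTi and EZH2i+AKTi. It averaged 5.56% and 5.91% in the HCC38 DMSO and EZH2i+AKTi groups, where EZH2i+AKTi library C stood apart at 7.77%, and 5.77% and 7.45% in those of HCC1937. Of 6 neuronal markers, STMN2 and GAP43 were at or near 0 in every group. The summed level of the 6 ranged over 3.50 to 4.68 CPM in HCC1395 DMSO, 8.60 to 8.93 under EZH2i, 5.82 to 6.14 under AKTi and 11.2 to 13.0 under EZH2i+AKTi. It went from 4.28 to 4.91 up to 9.42 to 10.4 CPM in HCC38 and from 5.89 to 7.85 to 6.28 to 6.73 CPM in HCC1937. In HCC38, SYT1 averaged 3.245 CPM in DMSO and 8.225 CPM under EZH2i+AKTi. There RBFOX3 went from 0.664 to 0.539, SYP from 0.712 to 0.801 and SNAP25 from 0.0195 to 0.106 CPM. The part of these differences in the protocadherin results was not tested, and fewer cells of a type and less RNA per cell cannot be told apart in bulk RNA.

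Rows of the alpha and gamma clusters are not independent measurements. In the gene models, each alpha gene but the pseudogene PCDHA14 shares constant exons with 14 other rows of the list, and each gamma gene with 21. How reads on these exons were assigned is not given in the sources used here. The constant exons did not give all rows a common floor, since in HCC38 DMSO library A PCDHGA8 had 0 counts while PCDHGC3 had 1130 and PCDHGA2 had 638. Beta genes share no exons but are near copies of each other, so counts can be split among neighbours. PCDH12 overlaps RNF14, which stood at 67.1 CPM in HCC1395 DMSO, and without stated strand use reads of overlapping genes cannot be told apart. Levels of different genes are ranked below by CPM per kilobase of exon that no other gene shares. The CPM is that of the whole row, so any reads on shared exons counted to a row would raise its value. Alpha and gamma genes may therefore rank too high beside beta and solitary genes. PCDHGB1, for example, has 4773 exon bases, of which 2038 are unshared. Sums over a cluster are in CPM and are compared between groups, not between clusters.

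Each line expressed a different set of protocadherins (map of levels over all libraries). At least 1 CPM in 1 or more groups was reached by 38 members in HCC1395, of which 5 were alpha, 12 beta, 15 gamma and 6 solitary. The number was 32 in HCC38 (5 alpha, 14 beta, 10 gamma and 3 solitary) and 15 in HCC1937 (1 alpha, 6 beta, 6 gamma and 2 solitary). That level was reached in every line by 11 members, in HCC1395 alone by 13, in HCC38 alone by 6, in HCC1937 alone by 1, and in no line by 18. Under 0.1 CPM in every group of the line were 8 members in HCC1395, 6 in HCC38 and 27 in HCC1937.

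Per kilobase of unshared exon in DMSO libraries, the delta2 gene PCDH10 led in HCC1395 at a mean of 15.8 CPM per kb, followed by PCDHB14 at 15.2, PCDHB2 at 7.58, PCDHB10 at 7.16, PCDHGC5 at 5.11 and PCDHGB1 at 3.93. In HCC38 the beta genes PCDHB5 at 17.1, PCDHB3 at 12.9 and PCDHB2 at 12.1 CPM per kb led, followed by PCDHGC3 at 9.89, PCDHB6 at 6.21 and PCDHB16 at 5.74. HCC1937 was led by a single solitary gene, PCDH1, at 57.6 CPM per kb, with PCDHGB5 at 9.17, PCDHGC3 at 5.53, PCDHB14 at 3.81, PCDHGB1 at 3.04 and PCDHB8 at 2.81 behind it.

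**Figure D1:**
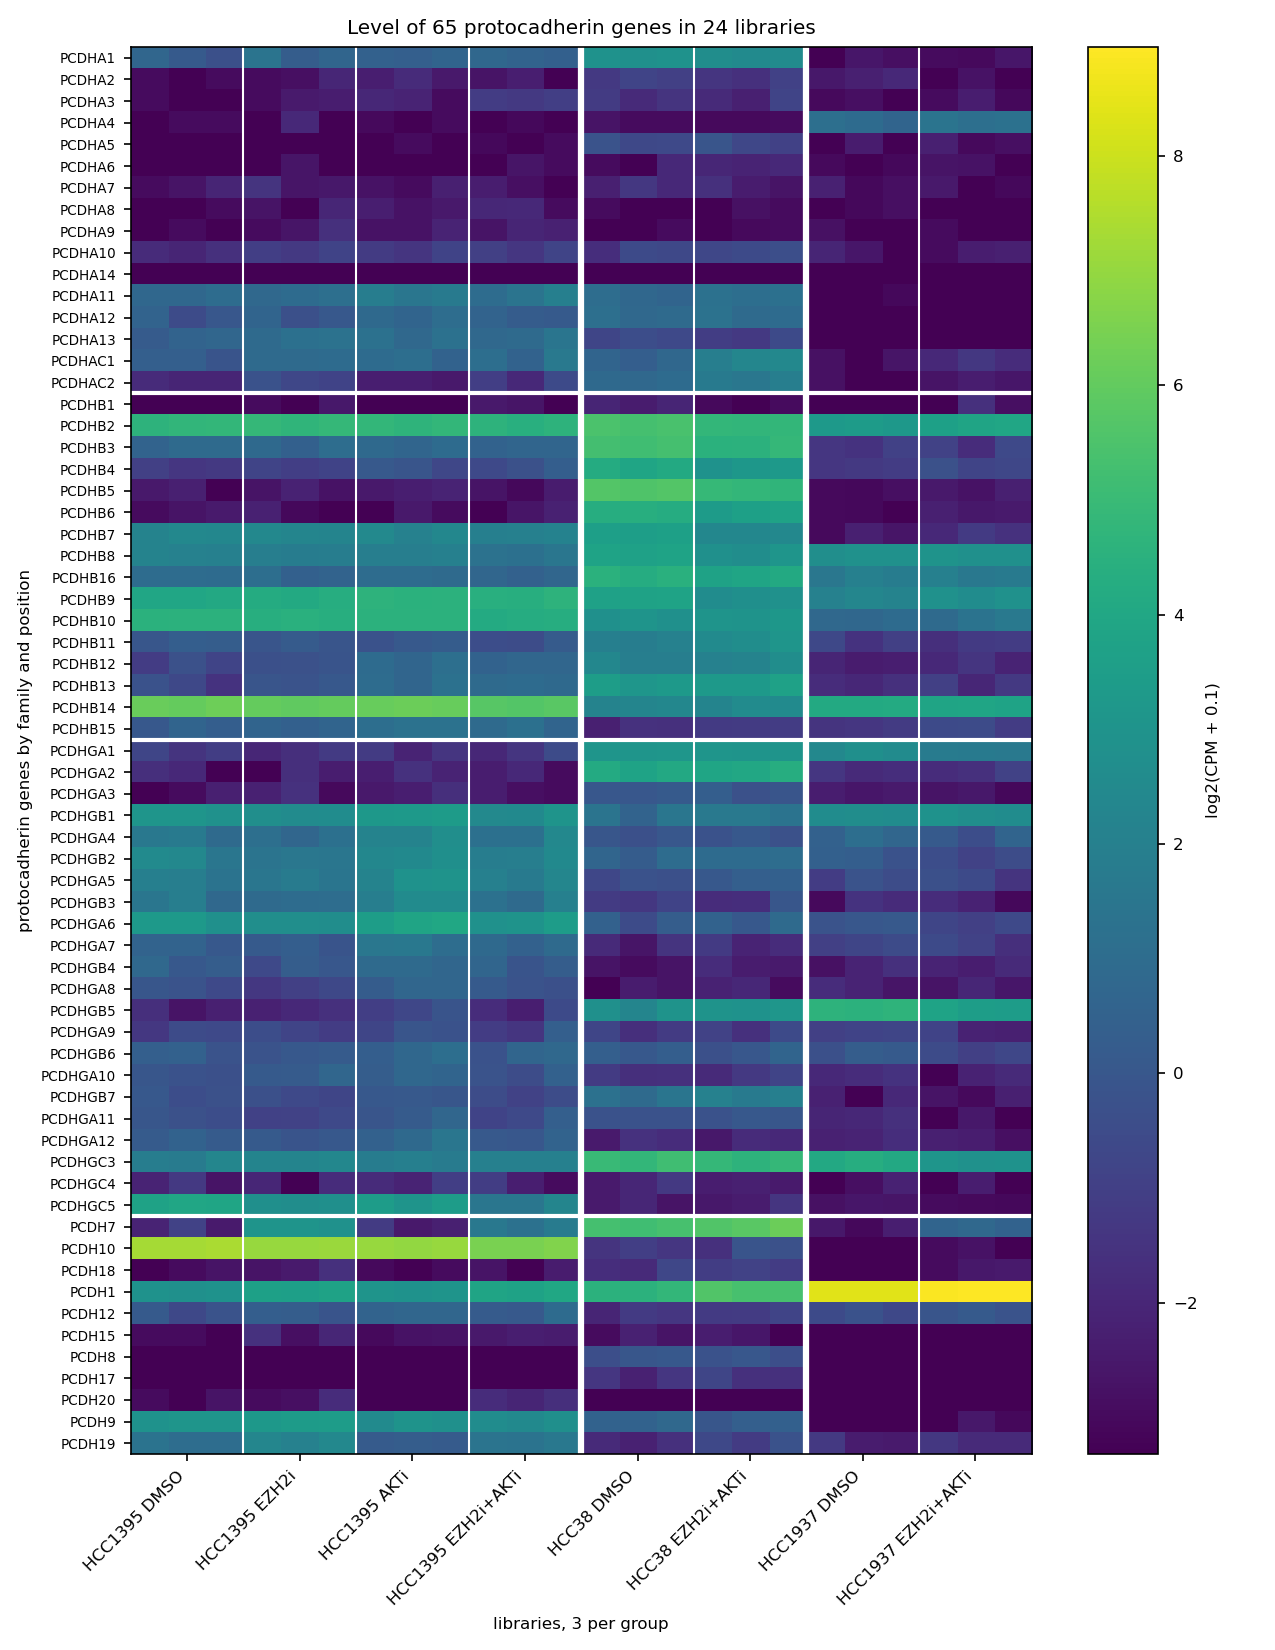
Level of each of the 65 protocadherin genes (rows, by family and position) in each of the 24 libraries (columns, 3 per group), as colour on a log2(CPM + 0.1) scale; thick white lines part the cell lines. HCC1937 has 27 genes under 0.1 CPM in every group and its highest row is PCDH1, while the beta rows are filled most fully in HCC38, with 14 of 16 at 1 CPM or more.

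A gene is called here where the edgeR quasi-likelihood test, adjusted by Benjamini-Hochberg over all genes tested in that fit, gave an adjusted p under 0.05. The low-count filter passed 47 members for HCC1395 and 49 for HCC38, but 26 for HCC1937, and 57 when all lines were fitted jointly. In every line 24 passed, and 8 (PCDHA6, PCDHA7, PCDHA8, PCDHA9, PCDHA14, PCDHB1, PCDH15 and PCDH20) passed in none. A member expressed under 1 treatment alone can pass through that group, so counts over the tested members describe them and are read against the share of all genes called. Against DMSO in HCC1395, EZH2i raised 8 of 47 tested members and lowered 5, where 18.8% of all tested genes were called higher and 14.9% lower. AKTi raised 21 and lowered 3 (27.1% and 22.6% of all genes). EZH2i+AKTi raised 14 and lowered 8 (32.5% and 27.4%). The 3 comparisons share the same DMSO libraries. In HCC38 the combination raised 7 of 49 and lowered 9 (16.8% and 14.5% of all genes), and in HCC1937 it raised 6 of 26 and lowered 8 (30.5% and 28.8%). Leaving out 1 HCC1395 library changed these counts. The EZH2i count was 4 higher and 3 lower without EZH2i library C, 6 and 2 without DMSO library A or EZH2i library B, and 7 and 3 without DMSO library B. It was 7 and 8 with size-factor (RLE) scaling and 5 and 7 with DESeq2, so the balance of higher and lower under EZH2i turned with the scaling. The AKTi count was 13 and 3 without DMSO library C, and the EZH2i+AKTi count was 9 and 10 without EZH2i+AKTi library C. Without HCC1937 DMSO library B, and also without HCC1937 EZH2i+AKTi library B, 4 members of HCC1937 were higher and 5 lower. Without HCC38 EZH2i+AKTi library C, 7 members of HCC38 were higher and 10 lower. Without HCC38 DMSO library B, 4 were higher and 9 lower.

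Among the solitary genes, PCDH7 rose with EZH2i and with EZH2i+AKTi in HCC1395 and with EZH2i+AKTi in HCC38 and HCC1937, PCDH1 rose in the same 4 comparisons, and PCDH10 fell in each HCC1395 treatment. The other solitary genes were at low levels or changed in HCC1395 or HCC38 alone (plot of solitary genes by library). Of the 6 solitary genes tested in HCC1395, 4 rose and 1 fell with EZH2i, 1 rose and 2 fell with AKTi, and 3 rose and 2 fell with EZH2i+AKTi. The share called was 83.3%, 50% and 83.3%, against 33.7%, 49.7% and 60% of all genes. In HCC38 3 of 9 rose and in HCC1937 2 of 3 rose, and none fell in either. These shares were 33.3% and 66.7%, against 31.4% and 59.3% of all genes.

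PCDH7, a delta1 protocadherin known for its part in brain metastasis and in binding to astrocytes, was at 0.135, 0.427 and 0.0834 CPM in HCC1395 DMSO libraries A, B and C. It stood at 8.08, 8.05 and 7.21 CPM under EZH2i, 0.335, 0.0796 and 0.109 CPM under AKTi and 2.89, 2.27 and 3.39 CPM under EZH2i+AKTi. All EZH2i libraries lay above all EZH2i+AKTi libraries, and both sets lay above every DMSO and AKTi library, which overlapped each other. The log2 change was 5.18 ± 0.32 (SE, 36.2-fold, adjusted p = 1.00e-09) under EZH2i, -0.27 ± 0.59 (adjusted p = 0.733) under AKTi and 3.70 ± 0.35 (adjusted p = 5.77e-08) under EZH2i+AKTi. EZH2i+AKTi lay below EZH2i by a log2 change of -1.47 ± 0.21 (adjusted p = 1.63e-05). Because the DMSO level rests on few counts, leaving out DMSO library B moved the EZH2i value to 6.12 and the EZH2i+AKTi value to 4.64.

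The other lines started from different PCDH7 levels. HCC38 already expressed it, at 40.1, 36.1 and 41.4 CPM in DMSO and 48.7, 56.4 and 72.0 CPM under EZH2i+AKTi, with no overlap between the groups. HCC1937 went from 0.0721, 0.0220 and 0.104 CPM to 1.47, 1.68 and 1.35 CPM, also without overlap. The log2 change was 0.56 ± 0.14 (adjusted p = 0.0121) in HCC38 and 4.43 ± 0.39 (adjusted p = 1.31e-07) in HCC1937. The HCC38 call was lost without DMSO B (log2 change 0.50, adjusted p = 0.0718). The treated HCC1937 libraries stayed below every HCC38 library.

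The 250 bases before the RefSeq start of PCDH7 (GRCh38.p14, plus strand) are shown because this gene had the largest change among the solitary genes in HCC1395 and HCC1937. The 10 CG pairs that could carry DNA methylation are in capitals.

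PCDH7 (chr4:30720119-30720368): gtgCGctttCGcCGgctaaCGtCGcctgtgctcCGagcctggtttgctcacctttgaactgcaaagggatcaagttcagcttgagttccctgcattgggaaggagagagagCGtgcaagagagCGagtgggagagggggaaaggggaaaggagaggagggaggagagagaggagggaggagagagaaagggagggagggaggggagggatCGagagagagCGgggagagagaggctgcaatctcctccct

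Of the 65 members, 56 matched a RefSeq promoter entry of 250 bases before to 50 after the start. PCDHA3, PCDHA13, PCDHA14, PCDHB6, PCDHB11, PCDHGA12, PCDHGC5, PCDH10 and PCDH20 had none. The number of CG pairs in that window had a median of 7 over 13 alpha, 7.5 over 14 beta, 7 over 20 gamma and 11 over 9 solitary promoters, against 14 over all 35116 promoters. PCDH7 had 16 in that window, which is longer than the 250 bases printed above with 10.

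PCDH1, a delta1 protocadherin of epithelia that hantaviruses use as a receptor, was at 7.45, 6.97 and 7.42 CPM in HCC1395 DMSO and 8.18, 7.57 and 8.07 CPM under AKTi. It was at 12.3, 12.2 and 13.3 CPM under EZH2i and 14.5, 13.1 and 15.8 CPM under EZH2i+AKTi, so both EZH2i groups lay above the other 2 groups without overlap, while AKTi libraries overlapped no DMSO library but did not pass the test. The log2 changes were 0.79 ± 0.09 (adjusted p = 4.69e-07) for EZH2i, 0.12 ± 0.09 (adjusted p = 0.302) for AKTi and 0.98 ± 0.09 (adjusted p = 4.56e-09) for EZH2i+AKTi. In HCC38 it went from 23.8, 23.4 and 27.4 to 48.3, 41.6 and 41.2 CPM and in HCC1937 from 341, 340.5 and 338 to 469, 491 and 495 CPM. The treated libraries lay above all DMSO libraries in both lines, with log2 changes of 0.78 ± 0.11 (adjusted p = 0.000595) and 0.51 ± 0.05 (adjusted p = 7.91e-07). Its level in HCC1937 DMSO was far above that of the other lines in every library.

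PCDH10, a delta2 gene often silenced by methylation in carcinomas, was at 158, 159 and 166 CPM in HCC1395 DMSO, 133, 133 and 139.7 CPM under EZH2i, 135, 123 and 131 CPM under AKTi and 88.8, 88.2 and 98.3 CPM under EZH2i+AKTi. Every treated library lay below every DMSO library, and the EZH2i+AKTi libraries were lowest. The log2 changes were -0.25 ± 0.05 (adjusted p = 0.000855), -0.32 ± 0.05 (adjusted p = 2.99e-05) and -0.82 ± 0.05 (adjusted p = 2.74e-11). Both other lines had little of it: HCC38 had a mean of 0.309 CPM in DMSO and 0.584 CPM under EZH2i+AKTi, a difference that did not pass the test, and HCC1937 had no count in DMSO and 0.0255 CPM under EZH2i+AKTi.

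PCDH9, a delta1 gene of the nervous system, was at 7.64, 8.37 and 8.29 CPM in HCC1395 DMSO, 9.31, 10.7 and 10.8 CPM under EZH2i, 5.83, 7.88 and 7.12 CPM under AKTi and 6.08, 5.50 and 6.80 CPM under EZH2i+AKTi. The EZH2i libraries were the highest and the EZH2i+AKTi libraries lay below all DMSO libraries. It rose with EZH2i (log2 0.35 ± 0.11, adjusted p = 0.0180) and fell with EZH2i+AKTi (log2 -0.42 ± 0.11, adjusted p = 0.00348), with an AKTi value of -0.23 ± 0.11 (adjusted p = 0.105). The EZH2i call was lost without DMSO A or EZH2i B or C or with DESeq2 (log2 change 0.30 to 0.32, adjusted p from 0.0560 to 0.0795).

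PCDH19, a delta2 gene whose mutations cause an epilepsy of females, was at 2.42, 1.96 and 2.00 CPM in HCC1395 DMSO, 4.90, 4.11 and 5.15 CPM under EZH2i, 1.06, 1.11 and 1.03 CPM under AKTi and 2.50, 2.43 and 2.94 CPM under EZH2i+AKTi. It rose with EZH2i (log2 1.15 ± 0.15, adjusted p = 4.32e-06) and fell with AKTi (log2 -1.00 ± 0.18, adjusted p = 7.76e-05). Under both inhibitors the log2 value was 0.28 ± 0.16 (adjusted p = 0.126), between the values of the single inhibitors. In HCC38 it went from a mean of 0.172 to 0.541 CPM (log2 1.58 ± 0.44, adjusted p = 0.0205), a call lost without DMSO A or B (log2 change 1.38 to 1.56, adjusted p from 0.0664 to 0.0893).

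PCDH12, a gene of endothelium and placenta, was at 0.996, 0.541 and 0.779 CPM in HCC1395 DMSO, 1.42, 1.54 and 1.55 CPM under AKTi and 1.04, 0.981 and 1.89 CPM under EZH2i+AKTi. AKTi libraries lay above the DMSO libraries, while EZH2i+AKTi libraries overlapped them. The log2 changes were 0.95 ± 0.28 (adjusted p = 0.00749) and 0.70 ± 0.28 (adjusted p = 0.0360), the second lost without DMSO B or C or EZH2i A or EZH2i+AKTi C or with DESeq2 or with the fit of the pair of groups alone (log2 change 0.38 to 0.70, adjusted p from 0.0532 to 0.252). The summed level of 5 endothelial markers stayed between 1.88 and 4.58 CPM in the HCC1395 libraries. With DMSO, EZH2i, AKTi and both, CDH5 averaged 0.0269, 0.109, 0.152 and 0.295 CPM, and TEK 0.294, 0.206, 0.162 and 0.104 CPM. In the same order VWF averaged 0.879, 1.27, 0.399 and 0.604 CPM and KDR 0.0828, 0.319, 0.0714 and 0.243 CPM. PECAM1 averaged 1.87, 1.82, 1.765 and 2.62 CPM. The part of these markers in the PCDH12 values was not tested. Of the remaining solitary genes, PCDH8, an activity-regulated synaptic protein, was at 0.828 and 0.782 CPM in the HCC38 groups and PCDH17 at 0.229 and 0.312 CPM there. PCDH18 averaged at most 0.385 CPM, PCDH15, the tip-link protein of hair cells, at most 0.142 CPM, and PCDH20 at most 0.182 CPM in any group, with no PCDH20 count in HCC38 or HCC1937.

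**Figure D2:**
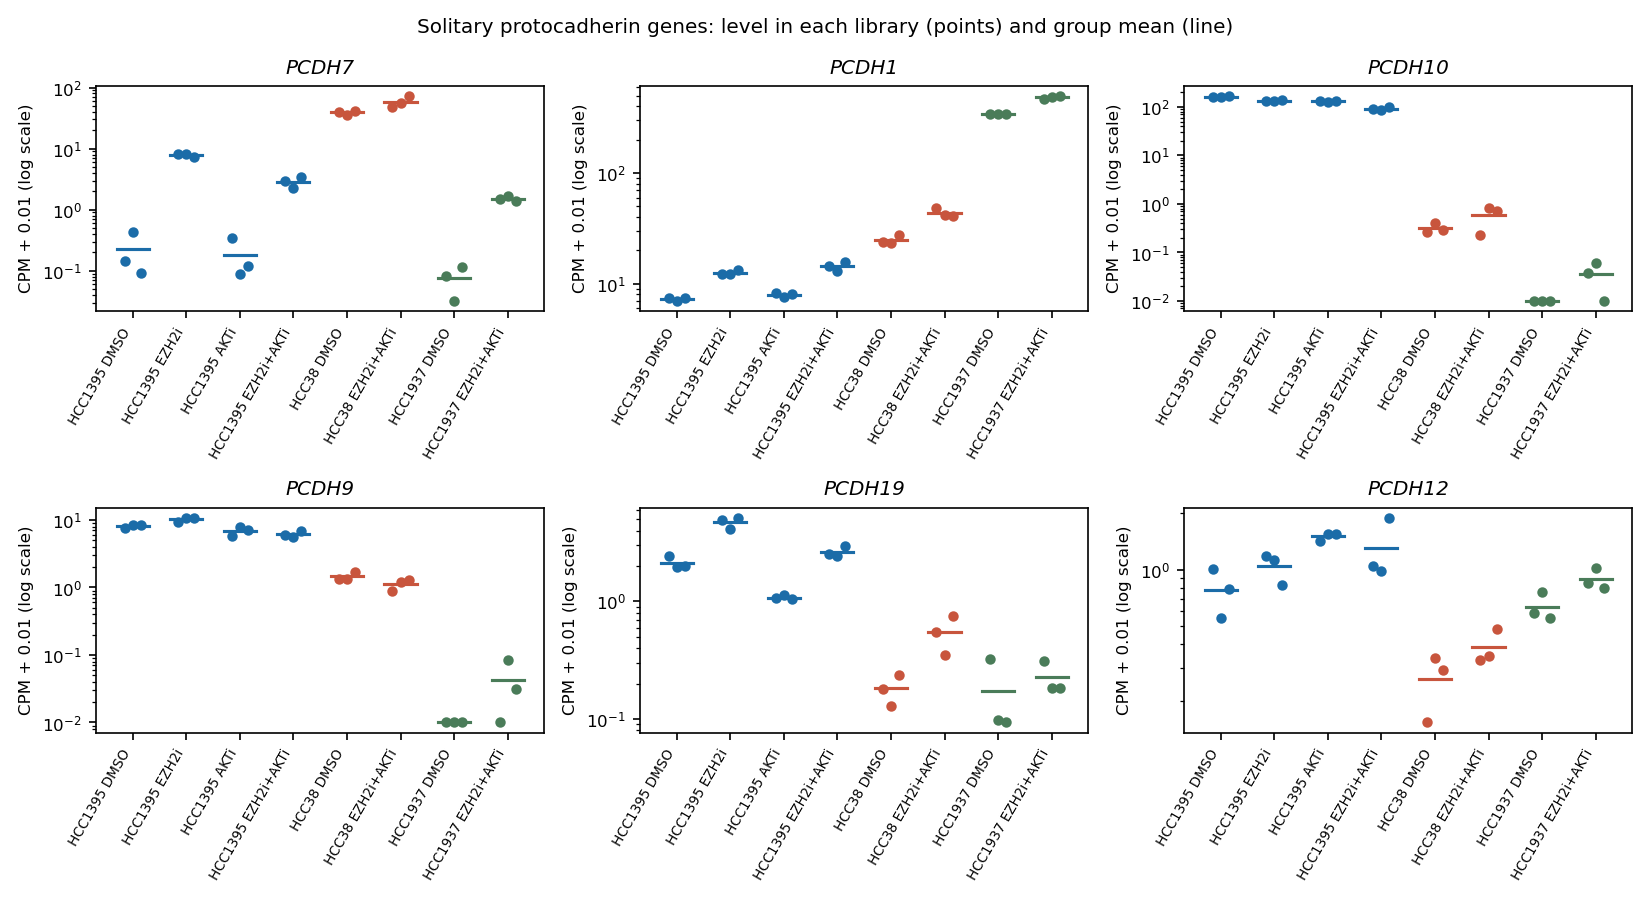
CPM + 0.01 on a log axis for 6 solitary genes in each of the 8 groups; points are libraries and lines are group means, coloured by cell line. PCDH7 in HCC1395 lies at 8.08, 8.05 and 7.21 CPM under EZH2i against at most 0.427 CPM in DMSO, and PCDH10 in HCC1395 is lowest under EZH2i+AKTi.

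Called beta genes mostly fell in HCC38 and moved in both directions in HCC1937 and HCC1395 (plots of cluster sums and of changes along the clusters). In HCC38, EZH2i+AKTi lowered 9 of 15 tested beta genes and raised 1, PCDHB11. The share called was 66.7%, against 31.4% of all genes (14.5% called lower). The median log2 change was -0.66 over the 15 against -0.01 over all genes tested. In HCC1395, EZH2i raised 1 of 13, AKTi raised 5, and EZH2i+AKTi raised 5 and lowered 4. The share called was 7.69%, 38.5% and 69.2%, against 33.7%, 49.7% and 60% of all genes. In HCC1937 the combination raised 4 of 11 and lowered 1. The share called was 45.5%, against 59.3% of all genes (30.5% called higher and 28.8% lower). The median there was 0.50 against 0.03 over all genes. The summed beta level was 266, 246 and 263 CPM in HCC38 DMSO and 162, 167 and 187 CPM under EZH2i+AKTi, without overlap. In HCC1937 it was 44.1, 47.4 and 46.2 CPM and 50.8, 50.3 and 52.5 CPM, with all treated libraries above all DMSO libraries. The HCC1395 sums were 153 ± 5.25 CPM in DMSO, 148 ± 4.60 CPM with EZH2i, 164 ± 1.27 CPM with AKTi and 134 ± 6.71 CPM with EZH2i+AKTi (mean ± SD, n = 3).

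The 9 beta genes that fell in HCC38 were neighbours in chromosome order, PCDHB2, PCDHB3, PCDHB4, PCDHB5, PCDHB6, PCDHB7, PCDHB8, PCDHB16 and PCDHB9, a run that no tested beta gene interrupted. PCDHB10, PCDHB12, PCDHB13, PCDHB14 and PCDHB15, which follow on the chromosome, did not pass the test there. PCDHB5, the beta gene with the highest level per kilobase in HCC38, went from 51.2, 47.1 and 50.9 to 29.3, 28.2 and 26.4 CPM (log2 -0.86 ± 0.10, adjusted p = 0.000130). PCDHB7 went from 12.2, 11.6 and 12.4 to 5.04, 4.96 and 5.23 CPM, the largest beta change (log2 -1.28 ± 0.11, adjusted p = 2.91e-05). PCDHB9 went from 12.8, 13.3 and 13.7 to 6.09, 6.82 and 7.36 CPM (log2 -1.01 ± 0.12, adjusted p = 0.000166). In each of these genes the treated libraries lay below every DMSO library, and so they did for the other 6.

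PCDHB2 went from 44.0, 40.6 and 42.7 to 27.5, 26.7 and 27.8 CPM in HCC38 and PCDHB3 from 39.0, 36.6 and 40.4 to 22.8, 23.6 and 28.5 CPM. PCDHB4 went from 18.4, 14.96 and 17.2 to 7.54, 8.78 and 9.77 CPM and PCDHB6 from 20.02, 20.5 and 19.2 to 10.5, 12.5 and 13.2 CPM. PCDHB8 went from 14.0, 13.1 and 13.6 to 7.12, 6.42 and 8.25 CPM and PCDHB16 from 22.96, 19.5 and 22.3 to 13.5, 15.001 and 17.4 CPM. These 6 genes changed by log2 -0.67, -0.66, -0.99, -0.75, -0.93 and -0.53, with adjusted p between 0.000376 and 0.00893. The PCDHB16 call was lost without EZH2i+AKTi B (log2 change -0.49, adjusted p = 0.0506). PCDHB11 rose from 3.88, 3.56 and 4.12 to 5.82, 6.31 and 8.36 CPM (log2 0.79 ± 0.16, adjusted p = 0.00474), also without overlap. The split of 1 higher and 9 lower was the same without HCC38 DMSO library B and without EZH2i+AKTi library C, whose mitochondrial share stood apart, and with RLE scaling or DESeq2.

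The sequences below are 40-base windows of beta promoters (RefSeq entries on GRCh38.p14, plus strand) around the 8-base string GTGGCGCT, in capitals. They are shown to set the beta genes that fell in HCC38 beside those that were not called there, around a string that ends in the known core CGCT. The string was chosen after looking at the member promoters, as the 8-base string held by the largest number of beta promoters. Ties went to the string rarest over all promoters, so its frequencies given below follow in part from that choice. It was searched on both strands (AGCGCCAC on the other). The first 8 belong to genes that fell in HCC38.

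PCDHB2 (chr5:141094540-141094579): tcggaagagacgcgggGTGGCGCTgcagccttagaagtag

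PCDHB3 (chr5:141100389-141100428): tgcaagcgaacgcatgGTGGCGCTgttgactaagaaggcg

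PCDHB4 (chr5:141121719-141121758): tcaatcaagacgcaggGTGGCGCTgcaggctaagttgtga

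PCDHB5 (chr5:141135175-141135214): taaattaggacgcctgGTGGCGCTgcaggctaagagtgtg

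PCDHB7 (chr5:141172562-141172601): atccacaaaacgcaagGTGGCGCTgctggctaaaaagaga

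PCDHB8 (chr5:141177773-141177812): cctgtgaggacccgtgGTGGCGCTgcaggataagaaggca

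PCDHB16 (chr5:141182306-141182345): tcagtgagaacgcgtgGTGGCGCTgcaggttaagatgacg

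PCDHB9 (chr5:141187070-141187109): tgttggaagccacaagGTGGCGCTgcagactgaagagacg

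The next 5 belong to tested beta genes that were not called in HCC38.

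PCDHB10 (chr5:141192295-141192334): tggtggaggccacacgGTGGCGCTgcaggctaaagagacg

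PCDHB12 (chr5:141208639-141208678): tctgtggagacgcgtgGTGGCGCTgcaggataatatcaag

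PCDHB13 (chr5:141213861-141213900): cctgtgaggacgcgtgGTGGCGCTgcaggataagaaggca

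PCDHB14 (chr5:141223259-141223298): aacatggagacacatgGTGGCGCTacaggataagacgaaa

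PCDHB15 (chr5:141245310-141245349): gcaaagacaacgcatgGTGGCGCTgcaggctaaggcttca

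The string was in 13 of 14 beta promoters with an entry, PCDHB1 being the exception, and in 1.15% of all 35116 promoters. It was in no alpha, gamma or solitary promoter of the list. Genes that fell in HCC38 and genes that were not called there both hold it. The 4-base core CGCT on either strand was in 14 of 14 beta promoters and in 70.0% of all promoters.

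In HCC1395 the beta calls under EZH2i+AKTi went in both directions. PCDHB13 went from 0.754, 0.541 and 0.250 CPM in DMSO to 1.94, 1.49 and 2.26 CPM under AKTi and 1.81, 1.86 and 1.71 CPM under EZH2i+AKTi, and PCDHB12 from 0.350, 0.711 and 0.473 to 1.88, 1.49 and 2.12 and 1.35, 1.53 and 1.56 CPM. These groups did not overlap DMSO. PCDHB13 changed by log2 1.86 ± 0.28 (adjusted p = 1.07e-05) with AKTi and 1.78 ± 0.28 (adjusted p = 1.14e-05) with both inhibitors, and PCDHB12 by 1.83 ± 0.25 (adjusted p = 4.00e-06) and 1.52 ± 0.26 (adjusted p = 3.11e-05). PCDHB4, at a mean of 0.331 CPM in DMSO, rose by 1.22 ± 0.36 and 1.25 ± 0.36 to 0.782 and 0.821 CPM. PCDHB9 went from 15.501, 15.4 and 16.8 CPM in DMSO to 18.7, 17.4 and 20.1 under EZH2i, 24.4, 23.02 and 23.3 under AKTi and 21.2, 20.4 and 24.0 under EZH2i+AKTi. It rose by log2 0.56 ± 0.08 with AKTi and 0.45 ± 0.08 with both, while its EZH2i call (log2 0.24 ± 0.08, adjusted p = 0.0200) was lost without DMSO A or B or EZH2i A or C or with size-factor (RLE) scaling or with no low-count filter or with DESeq2 (log2 change 0.18 to 0.22, adjusted p from 0.0502 to 0.119). With RLE scaling or DESeq2, EZH2i raised 0 and lowered 2 beta genes.

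PCDHB14, the beta gene with the highest level per kilobase in HCC1395 DMSO, was at 71.2, 66.2 and 74.4 CPM there and 53.7, 50.9 and 55.6 CPM under EZH2i+AKTi, without overlap (log2 -0.41 ± 0.06, adjusted p = 1.81e-06). PCDHB8 went from 4.41, 4.15 and 3.98 to 2.41, 2.25 and 2.76 CPM (log2 -0.78 ± 0.13, adjusted p = 2.18e-05) and PCDHB10 from 22.9, 23.4 and 23.4 to 18.2, 19.2 and 19.8 CPM (log2 -0.29 ± 0.06, adjusted p = 0.000302). Both were lower in every treated library. PCDHB2 fell by a log2 change of -0.19 ± 0.07 (adjusted p = 0.0356), a call lost without DMSO B or C or EZH2i+AKTi B or with the stricter low-count filter (log2 change -0.17 to -0.14, adjusted p from 0.0634 to 0.141). PCDHB15 went from 0.942, 1.45 and 1.17 CPM to 2.06, 2.39 and 2.39 under AKTi and 1.81, 2.19 and 1.47 under EZH2i+AKTi, with log2 changes of 0.94 ± 0.20 and 0.62 ± 0.20. The second was lost without DMSO A or EZH2i+AKTi B (log2 change 0.45 to 0.48, adjusted p from 0.0742 to 0.0963).

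In HCC1937, PCDHB9 went from 4.09, 4.82 and 4.37 to 7.41, 6.21 and 7.33 CPM (log2 0.65 ± 0.12, adjusted p = 0.000207) and PCDHB2 from 9.45, 10.7 and 9.22 to 12.6, 14.4 and 15.3 CPM (log2 0.53 ± 0.10, adjusted p = 0.000262). Both genes thus rose where in HCC38 they fell. PCDHB14 fell from 17.7, 17.5 and 18.1 to 14.5, 14.6 and 14.0 CPM (log2 -0.31 ± 0.08, adjusted p = 0.00245), without overlap. PCDHB10, at 1.66, 1.61 and 1.83 and 1.79, 2.44 and 2.97 CPM in overlapping groups, was called higher (log2 0.50 ± 0.19, adjusted p = 0.0358), a call lost without DMSO A or B or EZH2i+AKTi B or C or with DESeq2 (log2 change 0.30 to 0.49, adjusted p from 0.0697 to 0.236). PCDHB4, at means of 0.317 and 0.568 CPM, was called higher (log2 0.82 ± 0.33, adjusted p = 0.0459), a call lost without any 1 of 6 libraries or with size-factor (RLE) scaling or with no low-count filter or with DESeq2 (log2 change 0.58 to 0.93, adjusted p from 0.0506 to 0.218).

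**Figure D3:**
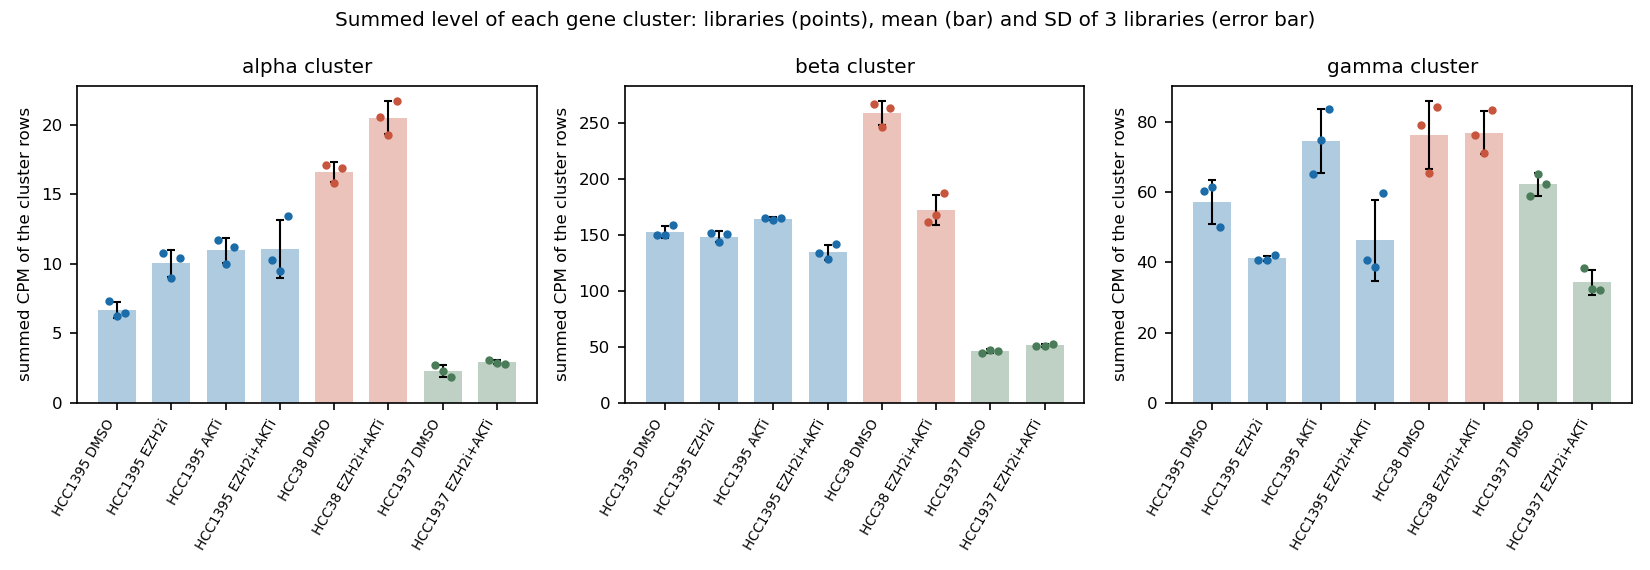
Summed CPM of the alpha, beta and gamma rows in each group; points are libraries, bars are means starting at 0 and error bars are the SD of 3 libraries, coloured by cell line. The beta sum of HCC38 goes from 258 ± 10.7 to 172 ± 13.2 CPM and the gamma sum of HCC1937 from 62.3 ± 3.24 to 34.3 ± 3.46 CPM.

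Called gamma genes fell in HCC1937 and, PCDHGC5 apart, rose under AKTi in HCC1395. In HCC1937, 7 of 11 tested gamma genes fell and none rose under EZH2i+AKTi, with a median log2 change of -0.90 against 0.03 over all genes. The share called was 63.6%, against 59.3% of all genes (28.8% called lower). In HCC1395, AKTi raised 10 of 20 and lowered 1 (median 0.57 against 0.06). EZH2i lowered 4 and raised none (median -0.41 against 0.02). EZH2i+AKTi lowered 2 and raised none (median -0.01 against 0.07). The share called was 55%, 20% and 10% in that order, against 49.7% (27.1% higher), 33.7% (14.9% lower) and 60% (27.4% lower) of all genes. The AKTi count was 5 higher without DMSO library C, 6 higher without AKTi library C and 8 higher with RLE scaling, each with 1 lower. Of 16 gamma genes tested in HCC38, PCDHGB7 rose and none fell (6.25% called, against 31.4% of all genes). The summed gamma level was 58.9, 65.4 and 62.5 CPM in HCC1937 DMSO and 38.3, 32.4 and 32.3 CPM under EZH2i+AKTi. In HCC1395 it was 60.3, 61.6 and 50.1 CPM in DMSO, 40.8, 40.8 and 42.0 under EZH2i, 65.3, 74.9 and 83.7 under AKTi and 40.6, 38.8 and 59.7 under EZH2i+AKTi. EZH2i libraries were all below and AKTi libraries all above DMSO, while EZH2i+AKTi library C, at 59.7 CPM, stood apart from A and B and within the DMSO range.

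In HCC1937, PCDHGC3, one of the C-type genes nearest the constant exons, went from 16.9, 19.99 and 17.1 CPM in DMSO to 8.41, 7.28 and 7.57 CPM (log2 -1.22 ± 0.10, adjusted p = 4.67e-08). PCDHGB5, the gamma gene with the highest level per kilobase there, went from 24.1, 23.8 and 25.5 to 13.8, 11.4 and 10.8 CPM (log2 -1.04 ± 0.09, adjusted p = 1.58e-07). PCDHGA1 went from 5.17, 6.87 and 6.04 to 3.34, 3.08 and 3.01 CPM (log2 -0.94 ± 0.13, adjusted p = 2.21e-05). None of the 3 had overlapping groups. PCDHGA6, at means of 0.892 and 0.476 CPM, fell by a log2 change of -0.90 ± 0.27 (adjusted p = 0.00973). PCDHGB2 went from 1.27, 1.17 and 0.749 to 0.651, 0.444 and 0.633 CPM (log2 -0.88 ± 0.28, adjusted p = 0.0145), a call lost without DMSO A or B or EZH2i+AKTi B (log2 change -0.81 to -0.73, adjusted p from 0.0534 to 0.0649). PCDHGB6, with means of 0.947 and 0.498 CPM (log2 -0.94 ± 0.29), was no longer called without DMSO B or EZH2i+AKTi B (log2 change -0.81 to -0.80, adjusted p from 0.0505 to 0.0593). PCDHGA4, at 1.30, 2.09 and 1.56 and 1.004, 0.641 and 1.44 CPM in overlapping groups (log2 -0.67 ± 0.27), was no longer called without DMSO B or C or EZH2i+AKTi A or B or with the stricter low-count filter or with DESeq2 (log2 change -0.72 to -0.43, adjusted p from 0.0565 to 0.195).

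PCDHGC5 fell with each treatment in HCC1395 and was the single gamma gene called lower under AKTi. It was at 13.4, 15.1 and 14.6 CPM in DMSO, 10.8, 8.15 and 10.9 under AKTi, 6.75, 6.32 and 6.74 under EZH2i and 2.73, 2.76 and 4.76 under EZH2i+AKTi. The 4 groups did not overlap. Log2 changes were -0.53 ± 0.15 (adjusted p = 0.00651) for AKTi, -1.12 ± 0.15 (adjusted p = 2.57e-05) for EZH2i and -2.12 ± 0.16 (adjusted p = 8.33e-09) for both. PCDHGC3, its close neighbour, was at 3.58, 3.39 and 4.84 CPM in DMSO and 3.91, 3.90 and 3.95 CPM under EZH2i+AKTi and did not pass the test (log2 -0.01 ± 0.13, adjusted p = 0.935).

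The gamma genes that rose with AKTi in HCC1395 included PCDHGA7, from 1.40, 1.39 and 0.945 to 2.81, 2.87 and 1.98 CPM (log2 1.03 ± 0.22, adjusted p = 0.000513), and PCDHGA5, from 3.77, 3.73 and 2.45 to 4.46, 7.49 and 7.77 CPM (log2 0.98 ± 0.22, adjusted p = 0.00142). PCDHGA6, the gamma gene with the highest CPM under AKTi, went from 9.53, 9.56 and 6.95 to 11.3, 14.5 and 15.6 CPM (log2 0.66 ± 0.16, adjusted p = 0.00244), and PCDHGA8 from 0.888, 0.768 and 0.556 to 1.08, 1.57 and 1.58 CPM (log2 0.92 ± 0.27, adjusted p = 0.00749). In these 4 genes every AKTi library lay above every DMSO library. PCDHGB5 was low, with means of 0.128 and 0.569 CPM (log2 2.10 ± 0.59, adjusted p = 0.00531, or 2.70 without DMSO library A). The remaining calls were less stable. PCDHGA4 (log2 0.95 ± 0.35, 2.91, 3.24 and 1.81 to 4.44, 4.43 and 6.61 CPM) was no longer called without any 1 of 8 libraries or with size-factor (RLE) scaling or with no low-count filter (log2 change 0.73 to 1.05, adjusted p from 0.0515 to 0.134). PCDHGB3 (log2 0.93 ± 0.31, 2.72, 3.76 and 1.67 to 3.77, 5.95 and 5.87 CPM) was no longer called without any 1 of 5 libraries (log2 change 0.68 to 0.93, adjusted p from 0.0507 to 0.0740). PCDHGA10 (log2 0.85 ± 0.28, 0.861, 0.740 and 0.695 to 1.11, 1.62 and 1.44 CPM) was no longer called without DMSO C or AKTi B (log2 change 0.72 to 0.78, adjusted p from 0.0572 to 0.0764).

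PCDHGB1 moved in opposite directions with the single inhibitors in HCC1395, at 8.37, 8.39 and 7.29 CPM in DMSO, 6.67, 5.96 and 6.24 under EZH2i, 9.34, 9.80 and 10.6 under AKTi and 5.47, 5.48 and 8.03 under EZH2i+AKTi. Its log2 changes were -0.35 ± 0.13 (adjusted p = 0.0374), 0.30 ± 0.12 (adjusted p = 0.0476) and -0.37 ± 0.12 (adjusted p = 0.0149). The AKTi call was lost without any 1 of 10 libraries or with size-factor (RLE) scaling or with no low-count filter or with DESeq2 (log2 change 0.22 to 0.34, adjusted p from 0.0509 to 0.179). The EZH2i call was lost without DMSO A or B or EZH2i B or C (log2 change -0.35 to -0.31, adjusted p from 0.0845 to 0.127) and the combination call, whose groups overlapped, without DMSO A or B or EZH2i+AKTi A (log2 change -0.34 to -0.28, adjusted p from 0.0520 to 0.0928). PCDHGB2 was at 5.73, 5.15 and 2.73 CPM in DMSO and 2.55, 2.84 and 2.76 under EZH2i, overlapping groups (log2 -0.73 ± 0.24, adjusted p = 0.0315), a call lost without any 1 of 5 libraries (log2 change -0.76 to -0.53, adjusted p from 0.0703 to 0.133). PCDHGA8 under EZH2i (log2 -0.84 ± 0.31, 0.294, 0.400 and 0.522 CPM) was no longer called without any 1 of 6 libraries or with no low-count filter or with DESeq2 (log2 change -0.89 to -0.69, adjusted p from 0.0509 to 0.161). PCDHGA12 under AKTi (1.05, 1.37 and 1.06 to 1.32, 1.75 and 2.72 CPM, log2 0.73 ± 0.26) was no longer called without DMSO A or C or AKTi C or with DESeq2 (log2 change 0.40 to 0.68, adjusted p from 0.0587 to 0.233). In HCC38, PCDHGB7 went from 2.25, 1.77 and 2.62 to 4.14, 3.11 and 3.79 CPM (log2 0.70 ± 0.19, adjusted p = 0.0188), a call lost without DMSO A or B (log2 change 0.56 to 0.70, adjusted p from 0.0601 to 0.0870).

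Gamma promoters carried another string at the same CGCT core. The windows below (40 bases, plus strand, GRCh38.p14) show GCCGCTGT in capitals for PCDHGA7 and PCDHGA8, which rose with AKTi in HCC1395, and for PCDHGA1, PCDHGB5 and PCDHGC3, which fell in HCC1937. They let the flanks be compared with those of the beta windows above.

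PCDHGA7 (chr5:141382647-141382686): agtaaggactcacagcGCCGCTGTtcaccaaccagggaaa

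PCDHGA8 (chr5:141392566-141392605): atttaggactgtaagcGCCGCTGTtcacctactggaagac

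PCDHGA1 (chr5:141330401-141330440): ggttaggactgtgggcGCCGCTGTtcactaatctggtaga

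PCDHGB5 (chr5:141397861-141397900): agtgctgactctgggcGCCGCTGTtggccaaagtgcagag

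PCDHGC3 (chr5:141475878-141475917): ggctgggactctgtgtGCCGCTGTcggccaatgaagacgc

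GCCGCTGT was chosen in the same way among gamma promoters, so its frequencies follow in part from that choice. Searched on both strands (ACAGCGGC on the other), it was in 11 of 20 gamma promoters with an entry. It was in no alpha, beta or solitary promoter of the list and in 1.63% of all promoters. PCDHGA5 and PCDHGA6, which also rose with AKTi, were among the 9 gamma promoters without it. CGCT was in 20 of 20 gamma promoters.

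Against DMSO, every alpha gene called rose. Of 8 alpha genes tested in HCC1395, EZH2i raised 3, AKTi raised 5 and EZH2i+AKTi raised 6, and none fell. The share called was 37.5%, 62.5% and 75%, against 33.7%, 49.7% and 60% of all genes. Of all genes, 18.8%, 27.1% and 32.5% were called higher. Median log2 changes were 0.72, 0.77 and 0.81 against 0.02, 0.06 and 0.07 over all genes. The tested alpha rows share constant exons, so these counts are not independent. In HCC38 2 of 9 rose and none fell, a share of 22.2% against 31.4% of all genes. In HCC1937 the single alpha gene tested, PCDHA4, was not called. The summed alpha level was 7.29, 6.23 and 6.45 CPM in HCC1395 DMSO, 10.7, 8.95 and 10.4 under EZH2i, 11.7, 9.98 and 11.2 under AKTi and 10.2, 9.50 and 13.4 under EZH2i+AKTi. All treated libraries lay above all DMSO libraries and the treated groups overlapped each other. It was 16.6 ± 0.700 and 20.5 ± 1.20 CPM in the HCC38 groups and 2.27 ± 0.420 and 2.92 ± 0.150 CPM in the HCC1937 groups (mean ± SD, n = 3).

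The C-type genes PCDHAC1 and PCDHAC2, nearest the constant exons, were the alpha genes called in HCC38. In HCC38 PCDHAC1 went from 1.43, 1.17 and 1.64 to 3.72, 4.82 and 5.20 CPM (log2 1.66 ± 0.19, adjusted p = 0.000176) and PCDHAC2 from 1.71, 1.68 and 1.86 to 3.25, 2.79 and 3.74 CPM (log2 0.86 ± 0.17, adjusted p = 0.00427). Neither had overlapping groups. In HCC1395 PCDHAC1 was at 1.21, 1.20 and 0.806 CPM in DMSO, 1.76, 1.77 and 1.84 under EZH2i, 1.83, 2.10 and 1.36 under AKTi and 2.08, 1.33 and 3.06 under EZH2i+AKTi. All treated libraries lay above all DMSO libraries. The log2 change was 0.97 ± 0.26 (adjusted p = 0.00333) with both inhibitors. The EZH2i call (log2 0.74 ± 0.27) was lost without any 1 of 6 libraries or with DESeq2 (log2 change 0.58 to 0.84, adjusted p from 0.0561 to 0.158), and the AKTi call (log2 0.71 ± 0.27) without DMSO C or AKTi A or B or EZH2i A or with DESeq2 (log2 change 0.54 to 0.68, adjusted p from 0.0659 to 0.148). PCDHAC2 stayed under 1 CPM in HCC1395, with means of 0.157 CPM in DMSO and 0.572 under EZH2i (log2 1.84 ± 0.47, adjusted p = 0.00462). Its combination call (log2 1.17 ± 0.49, overlapping groups) was lost without any 1 of 11 libraries or with size-factor (RLE) scaling or with no low-count filter or with DESeq2 (log2 change 0.80 to 1.32, adjusted p from 0.0533 to 0.217).

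PCDHA11 was at 1.64, 1.62 and 1.89 CPM in HCC1395 DMSO, 3.61, 2.71 and 3.07 under AKTi and 1.91, 2.57 and 3.804 under EZH2i+AKTi. The AKTi libraries lay above DMSO (log2 0.86 ± 0.21, adjusted p = 0.00206), and the combination call (log2 0.65 ± 0.21) was lost without EZH2i+AKTi C (log2 change 0.37, adjusted p = 0.115). PCDHA13 was at 1.05, 1.39 and 1.56 CPM in DMSO, 1.82, 2.21 and 2.36 under EZH2i, 2.30, 1.67 and 2.31 under AKTi and 1.69, 1.82 and 2.67 under EZH2i+AKTi. All its treated libraries lay above all DMSO libraries, with log2 changes of 0.69 ± 0.22, 0.64 ± 0.22 and 0.60 ± 0.22. Each call depended on single libraries. The EZH2i call was lost without DMSO A or EZH2i B or C (log2 change 0.54 to 0.66, adjusted p from 0.0558 to 0.101), the AKTi call without DMSO A or AKTi A or C (log2 change 0.49 to 0.57, adjusted p from 0.0704 to 0.103) and the combination call without DMSO A or EZH2i+AKTi C or with DESeq2 or with the fit of the pair of groups alone (log2 change 0.39 to 0.57, adjusted p from 0.0519 to 0.136).

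PCDHA12 went from 1.40, 0.598 and 0.918 to 1.75, 1.46 and 1.98 CPM with AKTi (log2 0.82 ± 0.29), a call lost without DMSO B or C or AKTi A or C (log2 change 0.57 to 0.81, adjusted p from 0.0518 to 0.121). PCDHA10, at 0.184 CPM in DMSO and 0.390 under EZH2i+AKTi (log2 1.04 ± 0.42), was no longer called without any 1 of 5 libraries or with no low-count filter or with DESeq2 or with the fit of the pair of groups alone (log2 change 0.89 to 1.05, adjusted p from 0.0572 to 0.127). PCDHA3 had 1 count over the 3 HCC1395 DMSO libraries, 12 over the AKTi libraries and 46 over the EZH2i+AKTi libraries. Scaled to library size, that is a ratio of 37.4 for EZH2i+AKTi against DMSO (95% exact counting interval 6.39 to 1510.0) and of 11.3 for AKTi (1.67 to 483), intervals that cover counting error alone. It was called higher in both comparisons by edgeR (adjusted p = 7.13e-05 and 0.0218), the AKTi call being lost without DMSO B or C or AKTi A or B (log2 change 2.68 to 2.94, adjusted p from 0.0622 to 0.0831). PCDHA4 was at 2.16, 1.85 and 1.46 CPM in HCC1937 DMSO and 2.52, 2.12 and 2.29 CPM under EZH2i+AKTi (log2 0.34 ± 0.18, adjusted p = 0.114).

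Alpha promoters carried yet another variant at the CGCT core, ATGTCGCT, shown in capitals (40 bases, plus strand, GRCh38.p14) for PCDHA12, which rose with AKTi in HCC1395, and for the leading alpha genes of HCC38 and HCC1937 DMSO.

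PCDHA12 (chr5:140875240-140875279): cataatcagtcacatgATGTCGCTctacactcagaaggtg

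PCDHA1 (chr5:140786082-140786121): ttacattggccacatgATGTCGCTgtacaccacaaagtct

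PCDHA4 (chr5:140806975-140807014): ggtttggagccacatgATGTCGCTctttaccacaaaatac

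ATGTCGCT, searched on both strands (AGCGACAT on the other), was in 9 of 13 alpha promoters with an entry, in no beta, gamma or solitary promoter of the list and in 0.234% of all promoters. PCDHAC1, PCDHAC2, PCDHA11 and PCDHA9 had none. This string was chosen in the same way among alpha promoters, so its frequencies also follow in part from that choice.

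**Figure D4:**
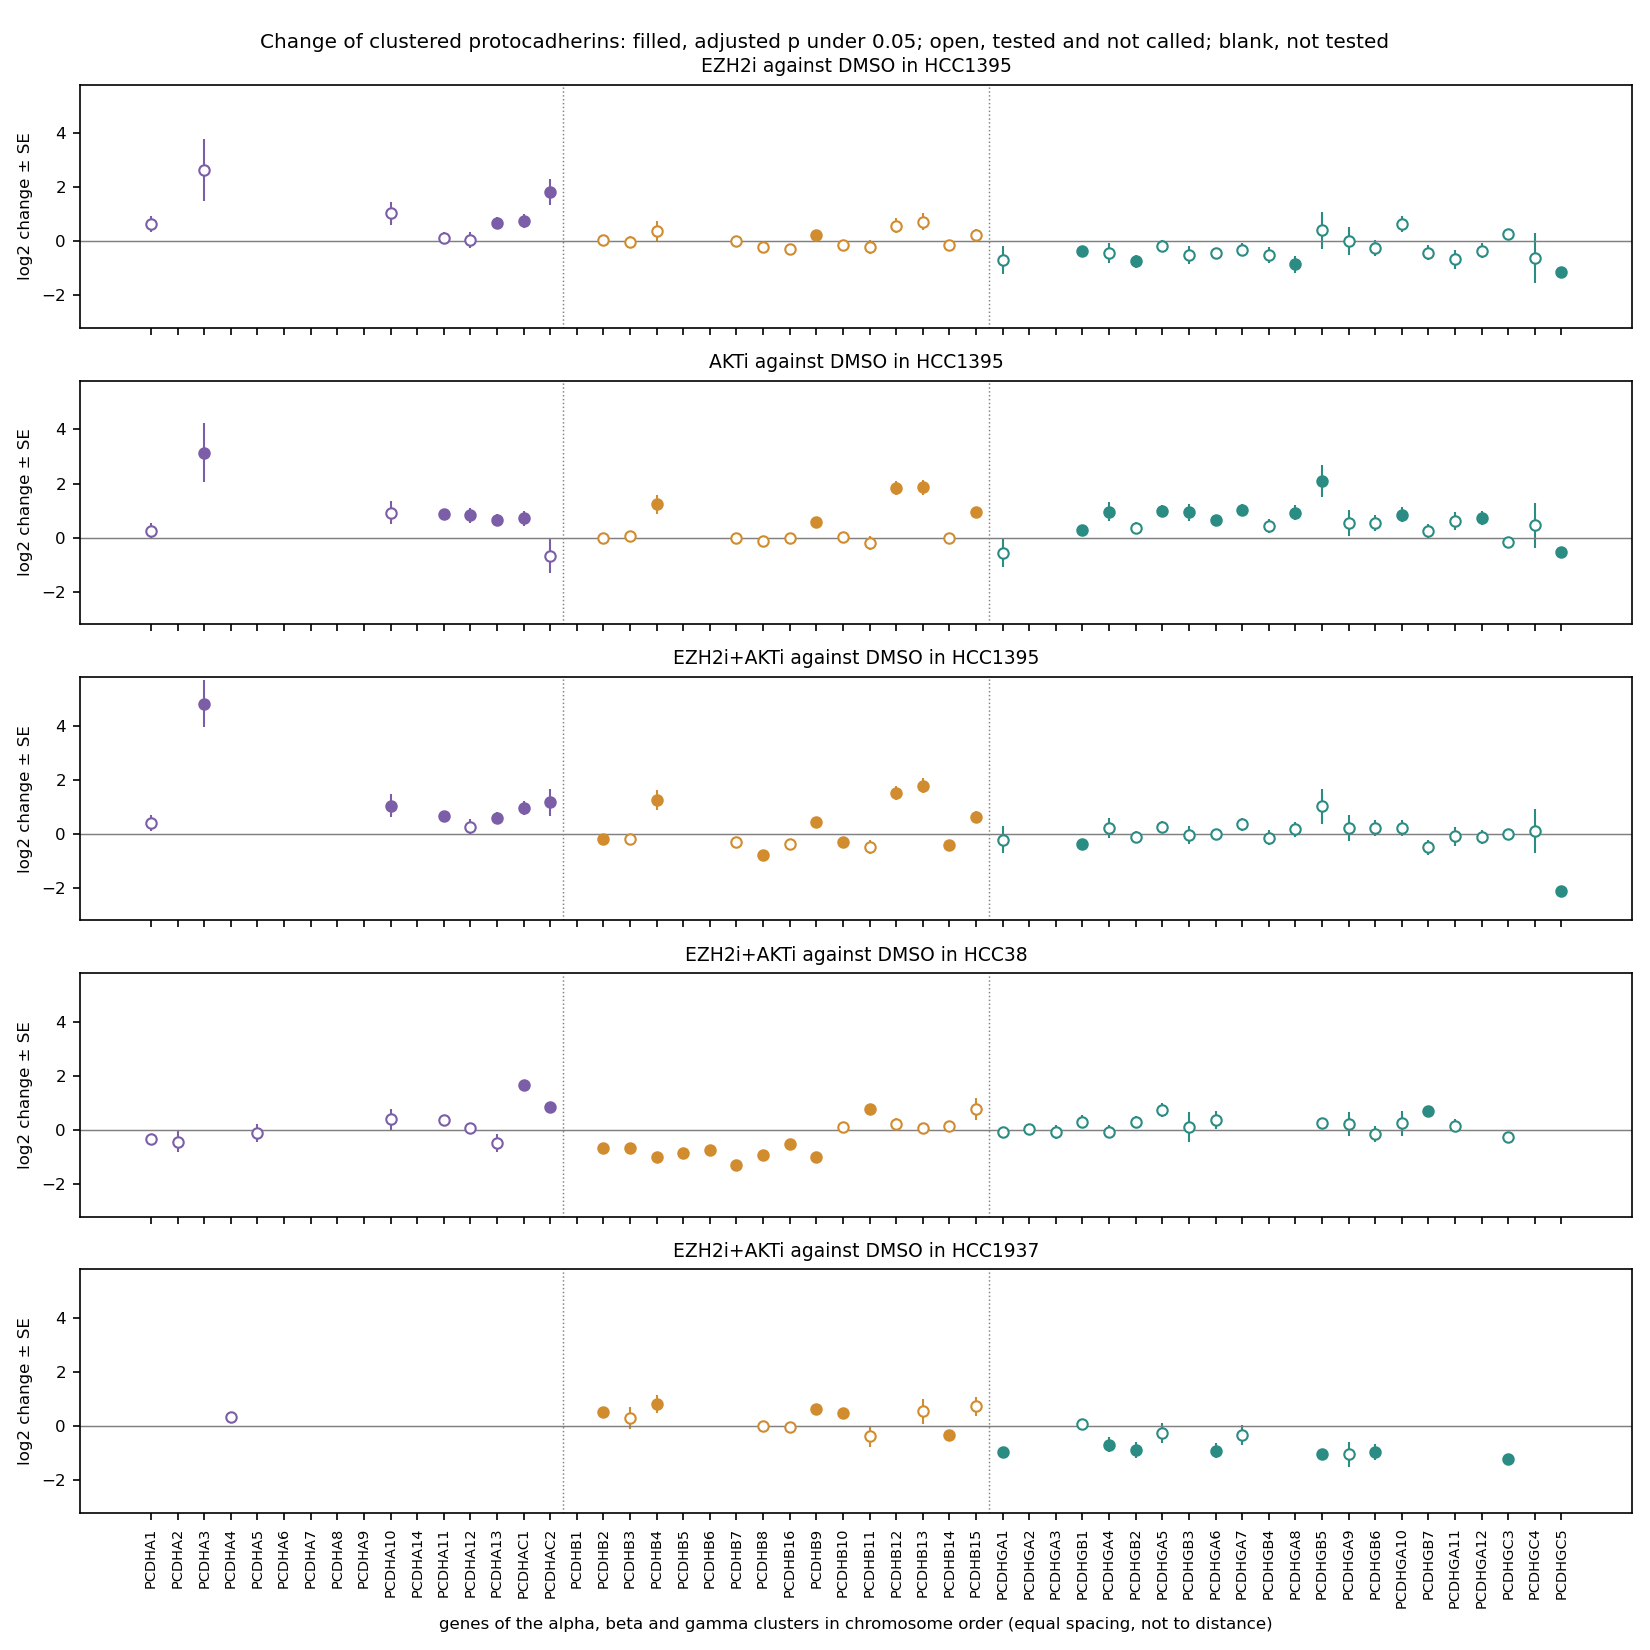
Log2 change (± SE) of each clustered gene in chromosome order, 1 panel per comparison with DMSO; filled points are called at adjusted p under 0.05, open points were tested and not called, blanks were not tested. PCDHB2 to PCDHB9 lie below 0 together in HCC38, the called gamma genes lie below 0 in HCC1937, and most called gamma genes lie above 0 under AKTi in HCC1395 apart from PCDHGC5 at -0.53 ± 0.15.

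The combination was also set against each single inhibitor in HCC1395. Against EZH2i alone, EZH2i+AKTi was higher for 9 of 47 tested members and lower for 8, where 23.9% and 25.1% of all genes were called higher and lower. It was higher for 4 and lower for 8 without EZH2i library A, 5 and 8 without EZH2i library B, and 5 and 11 without EZH2i+AKTi library C. Against AKTi alone it was higher for 5 and lower for 13 (17.0% and 18.6% of all genes), and 9 of the 13 were gamma genes (median log2 change over 20 gamma genes -0.68 against -0.01 over all genes). That gamma count was 14 without EZH2i+AKTi library C and 4 without AKTi library C, and the count of all members lower was 20 without the first, 8 without the second and 7 without EZH2i+AKTi library B. PCDHGC5 was lower under both inhibitors than under either alone (log2 -1.00 ± 0.17 against EZH2i and -1.59 ± 0.17 against AKTi), and so was PCDH10 (-0.57 ± 0.05 and -0.50 ± 0.05), each with adjusted p of 0.000124 or less. PCDH1 was higher under both than under AKTi (log2 0.86 ± 0.09, adjusted p = 1.46e-07) and did not pass against EZH2i (log2 0.18 ± 0.08, adjusted p = 0.0721). PCDH7 was above AKTi (log2 3.97 ± 0.36, or 4.86 without AKTi library A) and below EZH2i, as given above.

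Whether the combination differed from the sum of both single changes on the log2 scale was tested as an interaction. No member was called, against 286 of all genes (1.58%). By edgeR 10 members had an unadjusted p under 0.05, and DESeq2 called 0, with 8 under 0.05 unadjusted. The share of all genes under that unadjusted threshold was not counted. For PCDH7 the interaction was -1.20 ± 0.65 (adjusted p = 0.452) and for PCDHGC5 -0.47 ± 0.23 (adjusted p = 0.389). Without EZH2i+AKTi library C, 7 of 47 tested members were called, all below 0: PCDH10 at -0.31, PCDHB14 at -0.31, PCDHB9 at -0.42, PCDHGB1 at -0.51, PCDH9 at -0.61, PCDHGC5 at -0.74 and PCDHGA10 at -1.61. In that fit the calls over all genes also rose, to 1022 of 18514, with 656 below 0 and 366 above.

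The EZH2i+AKTi change differed between lines for part of the members by a test of the difference itself, in a joint fit of all 24 libraries. HCC38 less HCC1395 was higher for 8 of 57 tested members and lower for 9 (17.4% and 15.6% of all genes), HCC1937 less HCC1395 was higher for 5 and lower for 5 (11.3% and 12%), and HCC38 less HCC1937 was higher for 9 and lower for 10 (17.7% and 14.3%). Without HCC38 DMSO library B the first count was 5 and 8. The second was 4 and 3 without HCC1937 DMSO library C and 5 and 3 without HCC1937 EZH2i+AKTi library C. Of the 24 members tested in each line, PCDH1 and PCDH7 were called higher in all 3 (plot of 24 genes in 3 lines). PCDHB2, PCDHB4, PCDHB9 and PCDHB10 were called in opposite directions in different lines. Another 2 were called in 2 lines and in 1 direction, 14 in a single line and 2 in none. Of all genes, 60% were called in HCC1395, 31.4% in HCC38 and 59.3% in HCC1937 under EZH2i+AKTi. How often all genes were called in the same or opposite directions across lines was not counted. The tally therefore describes these 24 members and does not set them apart from other genes.

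PCDHB9 had the smallest adjusted p of the members in both comparisons with HCC38. Its EZH2i+AKTi change was 0.45 ± 0.08 in HCC1395, 0.65 ± 0.12 in HCC1937 and -1.01 ± 0.12 in HCC38, and HCC38 was below HCC1395 by a log2 difference of -1.43 ± 0.13 (adjusted p = 1.02e-09) and below HCC1937 by one of -1.63 ± 0.14 (adjusted p = 3.99e-10). PCDHB2 differed by -0.46 ± 0.12 (adjusted p = 0.00264) between HCC38 and HCC1395 and by -1.16 ± 0.12 (adjusted p = 1.15e-08) between HCC38 and HCC1937. PCDHGC3, which fell in HCC1937, differed there from HCC1395 by -1.21 ± 0.17 (adjusted p = 3.08e-06) and in HCC38 from HCC1937 by 0.97 ± 0.15 (adjusted p = 1.13e-05). For PCDH7, called higher in all 3 lines, the change in HCC38 was below that in HCC1395 by a log2 difference of -3.12 ± 0.38 (adjusted p = 4.22e-07), or -4.06 without HCC1395 DMSO library B, and below that in HCC1937 by one of -3.83 ± 0.50 (adjusted p = 1.20e-06).

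**Figure D5:**
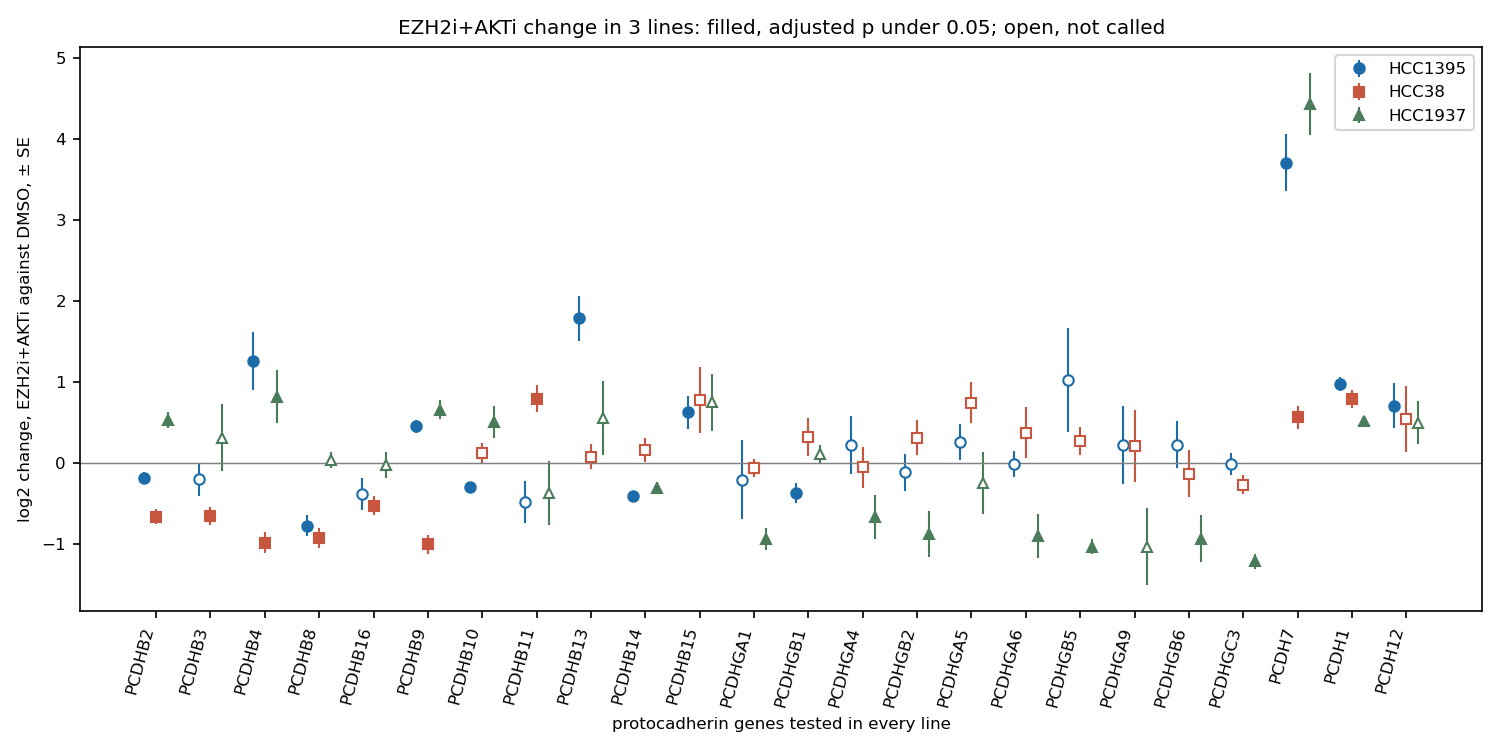
Log2 change (± SE) under EZH2i+AKTi against DMSO of the 24 genes tested in each line, by line; filled points are called at adjusted p under 0.05. PCDH7 and PCDH1 are filled and above 0 in all 3 lines, while PCDHB9 is above 0 in HCC1395 and HCC1937 and at -1.01 ± 0.12 in HCC38.

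Lists of related genes are read against the share of all tested genes called in either direction, which was 33.7% with EZH2i, 49.7% with AKTi and 60% with EZH2i+AKTi in HCC1395, 31.4% in HCC38 and 59.3% in HCC1937. Of 14 genes that act on protocadherin promoters (CTCF, cohesin and its loaders, SMCHD1, SETDB1, WIZ and DNA methyltransferases), EZH2i lowered 3, AKTi raised 2 and lowered 6, and EZH2i+AKTi raised 1 and lowered 8 in HCC1395. The combination lowered 1 in HCC38 and raised 1 and lowered 9 in HCC1937. The share called was 21.4%, 57.1% and 64.3% for the HCC1395 comparisons, 7.14% for HCC38 and 71.4% for HCC1937. The EZH2i count was 1 without DMSO library B and 5 without EZH2i+AKTi library B or C. In HCC38 it was 0 to 6 on leaving out 1 library, 6 (3 in each direction) without EZH2i+AKTi library A. DNMT1, which copies DNA methylation onto new strands, changed by log2 -1.05 with AKTi and -1.23 with EZH2i+AKTi in HCC1395 and by -0.93 in HCC1937. The cohesin subunit SMC1A changed by -0.81, -0.95 and -0.81 in the same 3 comparisons. SMCHD1, a silencer of clustered genes, fell with EZH2i (log2 -0.37) and in HCC1937 (log2 -0.68), and CTCF fell with AKTi (log2 -0.35). In HCC38 the gene that fell was DNMT3B (log2 -0.43), a call lost without DMSO A or C or EZH2i+AKTi B (adjusted p from 0.0612 to 0.0727).

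Of 8 genes of PRC2, the complex that EZH2i targets, EZH2i lowered 2, AKTi raised 1 and lowered 6, and EZH2i+AKTi raised 1 and lowered 6 in HCC1395. The combination raised 1 and lowered 1 in HCC38 and raised 1 and lowered 6 in HCC1937. The share called was 25% with EZH2i and in HCC38, below that of all genes, and 87.5% in the other comparisons. The 2 genes lowered by EZH2i, SUZ12 and RBBP7, were both lost without DMSO library A, EZH2i library B or EZH2i library C, while 4 were lowered without EZH2i+AKTi library B or with DESeq2. The gene lowered in HCC38, EED, was lost without any 1 of 5 libraries, with no low-count filter and with a stricter one (adjusted p from 0.0583 to 0.160). EZH2 itself fell with AKTi (log2 -0.82) and EZH2i+AKTi (log2 -0.87) in HCC1395 and with the combination in HCC1937 (log2 -0.85). EZH1, the other methyltransferase of the complex, rose by 1.02 and 0.92 in those HCC1395 comparisons, by 0.93 in HCC1937 and by 0.60 in HCC38.

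Of 17 signalling partners and proteases of protocadherins, EZH2i raised 3 and lowered 8, AKTi raised 8 and lowered 3, and EZH2i+AKTi raised 5 and lowered 8 in HCC1395. The combination raised 5 and lowered 2 in HCC38 and raised 6 and lowered 5 in HCC1937. The share called was 64.7%, 64.7% and 76.5% for the HCC1395 comparisons, 41.2% for HCC38 and 64.7% for HCC1937. EZH2i lowered 4 without DMSO library A or EZH2i library B and 5 without DMSO library B or EZH2i library C, and AKTi raised 5 and lowered 4 without EZH2i library A. In HCC38 the count was 3 higher and 0 lower without DMSO library A or C or EZH2i+AKTi library B, 2 and 0 without DMSO library B, and 8 and 3 without EZH2i+AKTi library A. CYFIP2, a subunit of the WAVE complex that binds protocadherin tails and directs actin assembly, rose by log2 1.83 with EZH2i and 2.65 with EZH2i+AKTi in HCC1395, 1.29 in HCC38 and 2.22 in HCC1937. FYN, a Src-family kinase, rose by 1.07, 1.20, 2.43 and 1.38 in the same order. WASF1, another WAVE subunit, rose by 0.61 and 0.65 in HCC1395 and 0.81 in HCC1937. Other partners fell. In HCC1395, CYFIP1 changed by -0.31 with EZH2i, PPP1CA by -0.37 with AKTi, and SET by -0.36 with AKTi and -0.46 with EZH2i+AKTi. ADAM10 changed by -0.53 in HCC1937.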

How the data were processed

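RNA-seq libraries of 3 triple-negative breast cancer cell lines (24 libraries in 8 groups of 3) were analysed. The deposited files hold raw read counts per gene, 1 file per library, with 58735 entries each. Per the submitters' processing notes, fastp, HISAT2 2.0.5, DESeq2 and the build hg38 were used, while the counting tool and annotation release were left unnamed (not given in the sources used here). Per the labels' protocols the RNA was polyadenylated, and whether counting used strand is not stated. Deposited normalised tables were not used.

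Groups were taken from the labels. Each line was fitted by itself with edgeR 4.0.16 (R 4.3.3): filterByExpr with a minimum count of 10, TMM scaling, the robust quasi-likelihood F-test, two-sided, and Benjamini-Hochberg adjustment over all genes tested, called at 0.05. Differences between lines came from a joint fit of all 24 libraries. Standard errors are the absolute log2 change over the square root of F. The fits were tested on simulated data. No 2 libraries held identical counts. Depth, from 33469927 to 51815656 counts per library, and 3 libraries per group set the precision. Gene positions are GENCODE v29 on hg38 and promoters are RefSeq on GRCh38.p14, matched by symbol.

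Alternatives were DESeq2 1.42.0, RLE scaling, no low-count filter, a filter of 1 CPM in 3 libraries, a replicate block, the 2 groups alone for HCC1395, and leaving out each library. The members, lists and tests were chosen with earlier results of these data known. All solitary members are named. Clustered members are named if called against DMSO and among the 8 largest changes of a comparison, and up to 4 genes per list by smallest p. PCDHA11, PCDHA12, PCDHB2, PCDHB3, PCDHB6, PCDHB10, PCDHB14, PCDHB15, PCDHB16, PCDHGA10, PCDHGA12, PCDHGB3 and PCDHGB7 are named besides, chosen after their values were seen.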

Additional observations from a re-analysis of the deposited data

Results flagged for a closer look

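The EZH2i+AKTi change differed between cell lines by a test of the difference itself (edgeR, joint fit of all 24 libraries) for the genes below. They were restricted to members with at least 1 CPM in a group of each line compared, a restriction chosen after the values were seen. How many members met it is not given here, so the counts below are not shares. Without that restriction, 33.0% of all 20697 genes tested were called for HCC38 less HCC1395. The share was 23.3% for HCC1937 less HCC1395 and 32.0% for HCC38 less HCC1937. All values are differences of log2 changes, with the first line less the second, and no explanation was tested.

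Between HCC38 and HCC1395, 10 genes differed. The change was lower in HCC38 for PCDHB2 (-0.46), PCDHB7 (-0.97), PCDHB9 (-1.43), PCDHB12 (-1.26), PCDHB13 (-1.69) and PCDH7 (-3.12, or -4.06 without HCC1395 DMSO library B). It was higher in HCC38 for PCDHB10 (0.44), PCDHB11 (1.31), PCDHB14 (0.59) and PCDHGB1 (0.70). PCDHB10 no longer passed without HCC38 DMSO library A (adjusted p = 0.0528). PCDHGB1 no longer passed on leaving out any of 4 libraries, with a difference of 0.46 and adjusted p = 0.109 without HCC38 DMSO library B.

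Between HCC1937 and HCC1395, 5 genes differed. The change was higher in HCC1937 for PCDHB2 (0.71), PCDHB8 (0.80) and PCDHB10 (0.79), and lower for PCDHGC3 (-1.21) and PCDH1 (-0.47).

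Between HCC38 and HCC1937, 10 genes differed. The change was lower in HCC38 for PCDHB2 (-1.16), PCDHB8 (-0.94), PCDHB9 (-1.63) and PCDH7 (-3.83). It was higher in HCC38 for PCDHB14 (0.49), PCDHGA1 (0.90), PCDHGB2 (1.21), PCDHGB5 (1.33), PCDHGC3 (0.97) and PCDH1 (0.30). PCDHGB2 and PCDH1 each no longer passed on leaving out any of 4 libraries, with a difference of 1.06 and adjusted p = 0.0668 for PCDHGB2 without HCC1937 EZH2i+AKTi library B, and 0.26 and 0.0737 for PCDH1 without HCC38 DMSO library B.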

How the results depend on the processing

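The 170 called member values kept their direction under every alternative run. Of those alternatives, 2989 kept the call, 309 lost it and 0 reversed it. The number of protocadherins called in HCC1937 was 14 of 26 tested, against 9 of 14 tested with the stricter low-count filter and 19 of 58 tested with no filter. It was 9 to 14 on leaving out 1 library. On leaving out 1 library it ranged from 7 to 15 for EZH2i (13 with all libraries), 16 to 24 for AKTi (24), 12 to 24 for EZH2i+AKTi against AKTi (18) and 0 to 7 for the interaction (0). Over all genes, the interaction called 286, against 470 with DESeq2 and 127 to 1022 on leaving out 1 library, and HCC38 called 5362, against 3114 to 6715. The filter settings changed how many members were tested, and leaving out a library also lowers the residual degrees of freedom. Beyond that, the cause of these shifts was not tested. A replicate block on the letters A, B and C called 10 members for EZH2i, 23 for AKTi, 21 for EZH2i+AKTi, 0 for the interaction, 16 in HCC38 and 11 in HCC1937. Deviations of libraries with the same letter correlated at -0.178 to 0.224 in HCC1395, -0.176 to 0.22 in HCC38 and -0.402 to -0.132 in HCC1937. The labels do not say what the letters stand for. With 3 libraries per group, these values cannot show whether a letter marks a shared culture or preparation. The settings listed beside a gene as ending its call leave out this block, under which PCDHAC1, PCDHGB2 and PCDHGA8 with EZH2i, PCDHGB1 with AKTi, PCDHAC2 with both and PCDHB4, PCDHB10 and PCDHGA4 in HCC1937 did not pass, nor did PCDHGB2 for EZH2i+AKTi against EZH2i and, of the related genes, EED in HCC38. RLE scaling moved the median log2 change of all genes from 0.02 to -0.02 for EZH2i, 0.06 to 0.02 for AKTi and 0.07 to 0.03 for EZH2i+AKTi in HCC1395.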

Other observations

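Other large cadherins and the neighbours of the clusters were measured beside the protocadherins. Of 13 FAT, Dachsous, CELSR and CDHR genes, EZH2i raised 3 and lowered 1, AKTi raised 4 and EZH2i+AKTi raised 4 of 11 tested in HCC1395. The combination raised 5 of 10 in HCC38 and raised 7 and lowered 2 of 10 in HCC1937. The share called was 36.4% in each HCC1395 comparison, 50% in HCC38 and 90% in HCC1937, where 33.7%, 49.7% and 60%, 31.4% and 59.3% of all genes were called. The EZH2i count was 2 higher and 0 lower without DMSO library A or any 1 EZH2i library, and 2 higher and 3 lower without DMSO library C. The HCC38 count was 2 without DMSO library B, and that in HCC1937 was 3 higher and 2 lower of 6 tested with the stricter filter. FAT3, a giant cadherin of the nervous system, rose by log2 2.29 in HCC1395, 1.33 in HCC38 and 1.84 in HCC1937 under EZH2i+AKTi. FAT4, which binds Dachsous ligands, rose by 4.86 in HCC1937 and by 1.20 in HCC38, the second lost without DMSO library B (adjusted p = 0.0600). The Dachsous gene DCHS2 rose by 1.10 in HCC1395 and by 4.47 in HCC1937, or 5.97 without HCC1937 DMSO library B. CELSR2, a seven-pass cadherin of planar cell polarity, rose by 0.73 in HCC1395 and 0.75 in HCC38. Its change in HCC1937 was below that in HCC1395 by a log2 difference of -0.74 (edgeR joint fit, adjusted p = 8.10e-05). CELSR1 changed by -0.56 in HCC1937. FAT1 changed by -0.62 with EZH2i in HCC1395, a call lost without any 1 of 6 libraries.

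Of 14 genes that flank the clusters on 5q31, EZH2i lowered 1, AKTi raised 5 and lowered 3, and EZH2i+AKTi raised 3 and lowered 5 of 11 tested in HCC1395. In HCC38 the combination lowered 6 of 12 and raised none, and in HCC1937 it raised 2 and lowered 5 of 12. The share called was 9.09%, 72.7% and 72.7% in HCC1395, 50% in HCC38 and 58.3% in HCC1937. EZH2i lowered 5 with RLE scaling or DESeq2 and 1 to 6 on leaving out 1 library, 6 without EZH2i+AKTi library B, 5 without EZH2i library A and 4 without EZH2i+AKTi library C. DIAPH1, an actin-nucleating formin gene beside the gamma cluster, changed by log2 -0.21, -0.57 and -0.75 with EZH2i, AKTi and both in HCC1395 and by -0.44 in HCC1937. In HCC38 the histidyl-tRNA synthetase gene HARS changed by -0.67 and the deacetylase gene HDAC3 by -0.52. RELL2 changed by -0.67 in HCC1395, -0.61 in HCC38 and -0.86 in HCC1937 under EZH2i+AKTi.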
